A study of Mus musculus with 8 samples.

Results

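The 42 genes described here fall into 2 arms of the cell's answer to protein and nutrient stress. The 21 genes of the ATF4 arm are Atf4 itself and genes known as targets of the transcription factor ATF4 or markers of its pathway. The 21 genes of the endoplasmic reticulum (ER) folding arm encode chaperones, disulfide isomerases, degradation factors and sensors of that compartment. They came from a named list, with no cut on measured values, but that list was chosen with earlier results of these data known. They make up 42 of the 14454 genes whose per-library values could be tied to a gene. RNA was sequenced from mouse CD4 T cells of strain C57BL/6, activated in culture with antibodies to CD3 and CD28. The cultures held IL-12 (2 ng/ml) and anti-IL-4 (5 µg/ml), the conditions that give Th1 cells. The 8 libraries form 4 groups of 2. Cells transduced with a short hairpin RNA (shRNA) against Pcbp1, a poly(C)-binding protein that also delivers iron to client proteins, were compared with cells transduced with a scrambled shRNA, in total RNA depleted of ribosomal RNA. Cells treated with CPX (ciclopirox olamine), an iron chelator, were compared with cells given the solvent DMSO, in polyA RNA per the labels. The sources used here do not give the dose and hours of CPX treatment or the time after transduction. Because nothing says that the replicates came from separate cultures or mice, p-values measure only the spread between these libraries, which may be technical. In bulk RNA of this kind, fewer cells expressing a gene and less RNA per cell cannot be told apart.

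ATF4 is made when kinases that sense amino acid shortage, heme shortage, viral RNA or ER stress phosphorylate the alpha subunit of the initiation factor eIF2. That phosphorylation slows most translation while favouring the Atf4 mRNA through its upstream open reading frames, and ATF4 then raises genes for amino acid synthesis, amino acid transport and, under lasting stress, cell death. Misfolded protein in the ER is sensed by PERK, one of those kinases, by IRE1 (gene Ern1), which splices the Xbp1 mRNA, and by ATF6, which is cleaved in the Golgi, and the XBP1 and ATF6 routes raise chaperones and degradation factors. Activated T cells depend on both systems, since they build serine, asparagine and proline while dividing and secrete cytokines. None of these assays measured ATF4 protein, eIF2 phosphorylation or Xbp1 splicing, so all values below are mRNA levels.

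The arms differ in short DNA motifs near their start sites, which are shown because elements with these letters are known to hold binding sites of the factors named above. Promoter windows (250 bases before to 50 after the start) came from RefSeq on build GRCm38.p6, while the files were made on mm9, and 38 of the 42 genes had an entry. The ER stress response element (CCAAT, then 9 bases of any kind, then CCACG, on either strand) was present in 8 of the 18 ER folding genes with a window (Hspa5, Hsp90b1, Dnajc3, Pdia6, Calr, Canx, Syvn1 and Creld2) and in 0 of 20 ATF4 arm genes, against 0.119% of all 32851 windows. Of these sites, 6 follow 5′ to 3′ on the gene's strand with 20 bases on each side, the fixed letters of the element in capitals. Calr and Creld2 hold it on the opposite strand.
Hspa5, chr2:34772005-34772063, plus strand: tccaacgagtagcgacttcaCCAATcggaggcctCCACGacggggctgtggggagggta
Pdia6, chr12:17266471-17266529, plus strand: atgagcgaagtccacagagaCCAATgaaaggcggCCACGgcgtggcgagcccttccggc
Calr, chr8:84847055-84847113, minus strand: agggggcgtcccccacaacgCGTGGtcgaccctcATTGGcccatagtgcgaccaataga
Canx, chr11:50325780-50325838, minus strand: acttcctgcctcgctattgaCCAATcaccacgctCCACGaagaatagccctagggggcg
Dnajc3, chr14:118937807-118937865, plus strand: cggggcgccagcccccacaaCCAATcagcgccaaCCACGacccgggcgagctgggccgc
Creld2, chr15:88819500-88819558, plus strand: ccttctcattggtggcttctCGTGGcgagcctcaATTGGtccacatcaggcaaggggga
The C/EBP-ATF response element, read as TGATGNAAN on either strand, was present in 6 of 20 ATF4 arm genes (Trib3, Chac1, Asns, Vldlr, Pycr1 and Nupr1) and in 1 of 18 ER folding genes (Herpud1), against 3.95% of all windows. Its sites in 5 of them follow, again with the fixed letters in capitals. Chac1, Nupr1 and Vldlr hold it on the opposite strand.
Chac1, chr2:119351028-119351076, plus strand: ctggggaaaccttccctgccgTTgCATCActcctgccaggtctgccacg
Nupr1, chr7:126625553-126625601, minus strand: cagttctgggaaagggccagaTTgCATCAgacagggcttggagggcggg
Vldlr, chr19:27216799-27216847, plus strand: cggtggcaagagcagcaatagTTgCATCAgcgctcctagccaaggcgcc
Asns, chr6:7693210-7693252, minus strand: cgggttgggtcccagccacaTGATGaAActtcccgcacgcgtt
Pycr1, chr11:120643823-120643871, minus strand: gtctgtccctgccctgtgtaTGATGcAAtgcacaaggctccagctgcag
The narrower letters TGATGCAA, a subset of that motif, were in 4 of 20 ATF4 arm genes and 1 of 18 ER folding genes, against 0.895% of all windows. For each motif here the member counts are of genes, 4 of which had 2 windows, while the shares of all are of windows. The letters TGACGTGG, a form of the ATF6 and XBP1 site, were in 0 windows of either arm, against 0.676% of all. A match is a string of letters only, and binding was not measured. Because the members were listed as known genes of these routes, the shares describe the lists and test nothing.

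Levels are given as RPM, the reads of a gene per 1e+06 reads of its library, without correction for gene length, so levels of different genes are not compared. Remarks that groups overlap or stand apart only describe these values. Groups of 2 libraries can easily stand apart by chance, and the share of all genes whose groups did so was not counted. Such remarks therefore add no support to a call. The hairpin libraries held between 14174293 and 15518303 reads, and the CPX and DMSO libraries between 19193784 and 19662145 units of a rescaled count. Pcbp1 stood at 15.1 and 16.1 RPM with its hairpin, against 44.0 and 51.7 RPM with the scrambled hairpin, so the knocked-down gene matched its label. Under CPX, Pcbp1 was also lower, at 238 and 199 RPM, against 506 and 538 RPM under DMSO. The defining genes Cd3e, Cd4, Tbx21 and Ifng were detected in all 8 libraries. Markers of neutrophils, NK cells and red cells were not among the genes with values. Of 4 B cell genes only Cd79a had values, at 1.04 and 1.51 RPM under CPX, against 0.509 and 0.307 RPM under DMSO. It was called higher (limma adjusted p 0.0414), but it entered the test only through CPX, so the call carries no weight. Other lists did move. The T helper list summed to 2420 and 6316 RPM under CPX, against 14793 and 25149 RPM under DMSO, and to 25590 and 19751 RPM with the Pcbp1 hairpin, against 51449 and 42057 RPM with the scrambled hairpin, most of it Ifng. The other genes of that list moved both ways. Under CPX Cd3e was lower and Cd3d higher (log2 -1.35 and 0.80), and Cd3g, Cd4, Cd28 and Tbx21 were not called. With the Pcbp1 hairpin Cd3e, Cd4 and Tbx21 were higher (log2 0.87, 0.88 and 0.33). Cd3d, Cd3g and Cd28 were lower (log2 -1.18, -0.89 and -0.80). Of 5 plasma cell symbols, among which Igj and Jchain name the same gene, 4 had values. They summed to 305 and 485 RPM under CPX, against 1280 and 1485 RPM under DMSO, and to 1231 and 1314 RPM with the Pcbp1 hairpin, against 658 and 750 RPM with the scrambled hairpin. Most of that sum is Irf4, which T cells also express and which was 5.34-fold lower under CPX (limma adjusted p 0.00293), while Prdm1, another gene T cells share, was 11-fold higher (limma adjusted p 0.01). Igj, the antibody joining chain, was at most 1.04 RPM in any library. The 2 CD8 genes summed to 92.0 and 11.6 RPM with the Pcbp1 hairpin and to 90.5 and 11.9 RPM with the scrambled hairpin, following the replicate number and not the hairpin. Of 6 macrophage symbols, among which Emr1 and Adgre1 name the same gene, 3 had values (Emr1, Itgam and Cd68). These summed to 67.3 and 46.2 RPM under CPX, against 2.70 and 4.71 RPM under DMSO. The defining genes Lyz2 and Csf1r had mean signals of 0.259 and 1.77 normalized counts in the authors' deposited table for CPX. Col1a1, the fibroblast gene with values, stood at 4.32 and 3.12 RPM under CPX, against 0.203 and 0.460 RPM under DMSO. The part of these markers in the results below was not tested.

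The ATF4 arm had more genes higher than lower under CPX. Of its 20 genes measured well enough to test, 10 were higher under CPX than under DMSO, 1 was lower and 9 did not pass, with limma on log2(RPM + 0.5) and a Benjamini-Hochberg adjusted p under 0.05 over all 11466 genes tested. Across all genes 44.7% were called, and 19.9% of those tested were higher and 24.8% lower. The median log2 fold change was 0.90 over the arm and -0.12 over all genes, and 9 arm genes stood at least 2-fold higher, as did 20.7% of all genes. Vldlr, Nupr1 and Pycr1 entered the test only through the group where each was high, so their calls carry no weight, and of the other 17 genes 8 were higher and 0 lower, with a median of 0.80. The genes that rose include Ddit3, Trib3 and Cebpb, each over 10-fold, while the Atf4 mRNA itself did not pass.

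Among the transcription factors, Atf4 stood at 382 and 645 RPM under CPX, against 481 and 378 RPM under DMSO. The groups overlapped, and limma gave a log2 fold change of 0.22 with a standard error (SE) of 0.30 and an adjusted p of 0.585. Ddit3, which encodes the death-promoting factor CHOP, stood at 146 and 207 RPM under CPX, against 8.24 and 10.2 RPM under DMSO. Both CPX libraries lay far above both DMSO libraries, an 18.0-fold rise (log2 4.17, SE 0.29, limma adjusted p 0.00241). Cebpb, a bZIP factor that can pair with ATF4, was at 152 and 150 RPM under CPX, against 9.97 and 15.3 RPM under DMSO. That rise was 11.8-fold (log2 3.56, SE 0.29, limma adjusted p 0.00241). Cebpg, another partner of ATF4, was at 58.7 and 113 RPM under CPX, against 57.9 and 49.9 RPM under DMSO. Atf5, a related factor, was at 9.79 and 40.2 RPM under CPX, against 10.1 and 9.52 RPM under DMSO. For both, 1 CPX library was high and the other was near DMSO, and neither passed the test (limma adjusted p 0.222 for Cebpg and 0.263 for Atf5).

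Most feedback and stress genes of the arm rose as well. Trib3, a pseudokinase that CHOP and ATF4 induce, stood at 151 and 229 RPM under CPX, against 13.5 and 4.14 RPM under DMSO, a 23.1-fold rise (log2 4.53, SE 0.56, limma adjusted p 0.00368). Its log2 value was 5.32 without DMSO replicate 1 and 3.73 without DMSO replicate 2. Ppp1r15a encodes GADD34, which directs a phosphatase to eIF2 and so ends the response. It stood at 942 and 499 RPM under CPX, against 166 and 125 RPM under DMSO, a 4.75-fold rise (limma adjusted p 0.00607). Sesn2, a leucine sensor that restrains mTORC1, stood at 284 and 188 RPM under CPX, against 51.8 and 27.0 RPM under DMSO, a 6.11-fold rise (limma adjusted p 0.00528). For all of these the lower CPX library was above the higher DMSO library. Vldlr, a lipoprotein receptor, stood at 26.5 and 9.41 RPM under CPX, against 0.509 and 0.307 RPM under DMSO. With both DMSO libraries under 1 RPM, its log2 fold change depends on the pseudocount, at 4.18 with 0.5 RPM and 2.91 with 2 RPM, and it was 3.46 without CPX replicate 1 and 4.90 without CPX replicate 2. Nupr1, a small stress-induced chromatin protein, stood at 4.12 and 3.48 RPM under CPX, against 0.915 and 0.665 RPM under DMSO, with a log2 fold change of 1.74 at 0.5 RPM and 1.05 at 2 RPM. Stc2, a secreted glycoprotein, stood at 49.5 and 57.5 RPM under CPX, against 21.6 and 21.3 RPM under DMSO, a 2.45-fold rise (limma adjusted p 0.0109). The groups of Stc2 did not overlap. Nupr1, like Vldlr, entered the test only through CPX, so its separation carries no weight. Chac1, which degrades glutathione and is a familiar ATF4 target, did not follow them, at 7.35 and 13.1 RPM under CPX, against 11.8 and 4.30 RPM under DMSO (limma adjusted p 0.557). Gdf15, a secreted stress cytokine, was too low to test, with 7 and 1 units under CPX and 0 in both DMSO libraries.

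The amino acid enzymes of the arm were divided under CPX. Gpt2, the mitochondrial alanine aminotransferase, stood at 36.8 and 101 RPM under CPX, against 13.7 and 17.3 RPM under DMSO, a 3.86-fold rise (log2 1.95, limma adjusted p 0.027). Its log2 value was 2.67 without CPX replicate 1 and 1.23 without CPX replicate 2. Phgdh, the first enzyme of serine synthesis, stood at 378 and 365 RPM under CPX, against 236 and 213 RPM under DMSO, a 1.66-fold rise (limma adjusted p 0.0263). The next enzymes of that route, Psat1 and Psph, had overlapping groups and log2 fold changes of 0.33 and -0.11. Asns, asparagine synthetase, stood at 143 and 151 RPM under CPX, against 114 and 61.7 RPM under DMSO, with no overlap but no call (log2 0.80, SE 0.33, limma adjusted p 0.0981). Pycr1, which completes proline synthesis in mitochondria, was lower. It stood at 0.886 and 1.51 RPM under CPX, against 7.27 and 5.17 RPM under DMSO (log2 -1.99, SE 0.36, limma adjusted p 0.00894). Aldh18a1, the entry enzyme of the same route, had nearly equal groups, at 250 and 226 RPM under CPX, against 248 and 224 RPM under DMSO. Cth, which makes cysteine from cystathionine, had overlapping groups (limma adjusted p 0.342). Each group has 2 libraries, and leaving out 1 of them removed several of these calls. Leaving out either DMSO library removed many calls over all genes as well. Without DMSO replicate 1 the arm had 7 genes higher and without DMSO replicate 2 it had 6, while without CPX replicate 1 it had 12, the gained ones being Atf5 and Cebpg. Ddit3, Trib3, Sesn2, Cebpb and Ppp1r15a were called higher with every library left out in turn, as was Vldlr, which entered the test through its CPX values. The adjusted p values with DMSO replicate 1 and then DMSO replicate 2 left out were 0.177 and 0.256 for Phgdh, 0.102 and 0.0633 for Gpt2, and 0.106 and 0.104 for Stc2 in limma, and Nupr1 lost its call without DMSO replicate 2 (0.0689). Pycr1 lost its call without DMSO replicate 1 (limma adjusted p 0.0565).

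**Figure D1:**
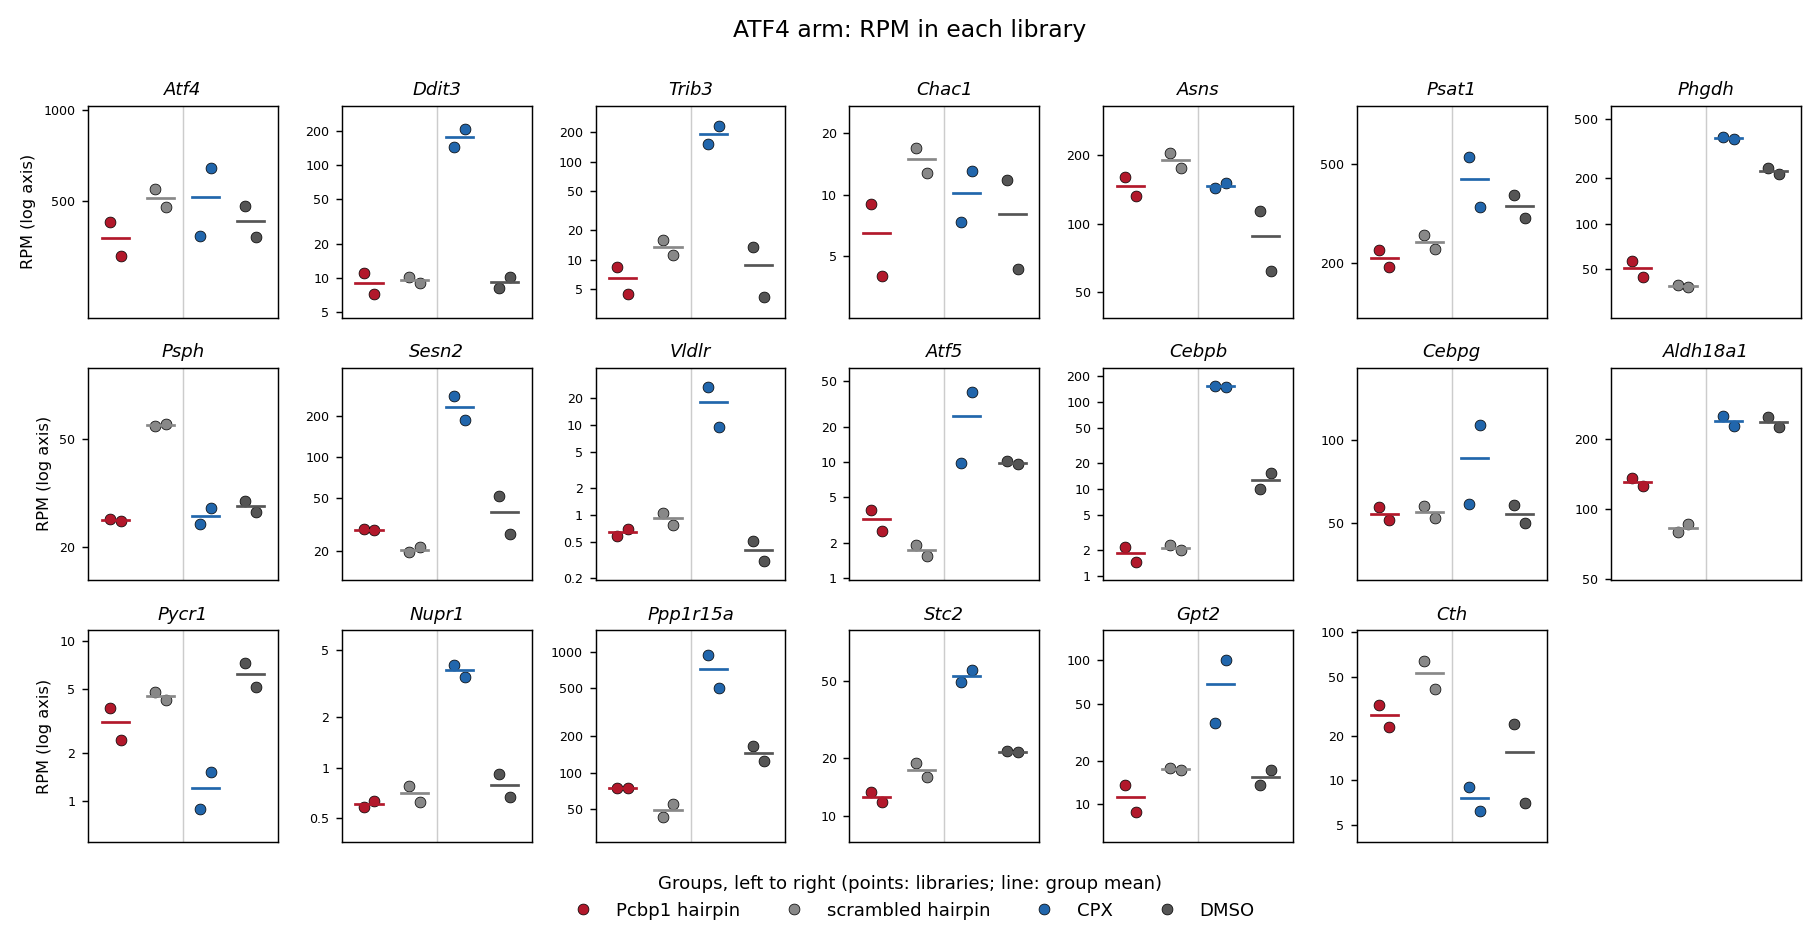
RPM of the ATF4 arm genes other than Gdf15 in each library on a log axis, with Pcbp1 hairpin left of scrambled hairpin and CPX left of DMSO; each point is 1 library and each line a group mean. The CPX points of Ddit3, Trib3 and Cebpb lie far above the DMSO points, at 146 and 207 RPM against 8.24 and 10.2 RPM for Ddit3, while the hairpin groups of Ddit3 and Cebpb overlap.

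The ER folding arm held genes that moved either way under CPX. Of 21 genes tested, 7 were lower under CPX than under DMSO, 3 were higher and 11 did not pass, with limma, beside 24.8% lower and 19.9% higher over all genes, so the share called was near that of all genes. The median log2 fold change was -0.34 over the arm and -0.12 over all genes, and 6 arm genes stood at least 2-fold lower, beside 24.8% of all genes. The genes that fell are cofactors and isomerases of the folding machine (Hyou1, Pdia4, Creld2, Sdf2l1, Manf, Pdia6 and Dnajc3). Hspa5, which encodes BiP, the central chaperone of the ER, was at 1822 and 1818 RPM under CPX, against 2106 and 2034 RPM under DMSO, and did not pass (log2 -0.19, SE 0.18, limma adjusted p 0.42).

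Hyou1, the exchange factor that recharges BiP, stood at 78.9 and 97.1 RPM under CPX, against 442 and 434 RPM under DMSO. Both CPX libraries were far below both DMSO libraries (log2 -2.32, SE 0.21, 4.98-fold lower, limma adjusted p 0.00246). Pdia4, a disulfide isomerase, stood at 17.5 and 19.8 RPM under CPX, against 88.4 and 100 RPM under DMSO (4.97-fold lower, limma adjusted p 0.00289). Creld2, a secreted ER stress protein, stood at 10.3 and 9.67 RPM under CPX, against 46.6 and 46.3 RPM under DMSO (4.49-fold lower, limma adjusted p 0.00357). These 3 genes were called lower with each library left out in turn. Sdf2l1, a cofactor of BiP and its partner J proteins, stood at 5.47 and 10.2 RPM under CPX, against 32 and 43.8 RPM under DMSO (4.74-fold lower, limma adjusted p 0.00865). Manf, a secreted protein that stabilises BiP complexes, stood at 38 and 53 RPM under CPX, against 108 and 132 RPM under DMSO (2.65-fold lower, limma adjusted p 0.0104). Pdia6, an isomerase that acts with BiP, stood at 136 and 186 RPM under CPX, against 331 and 382 RPM under DMSO (2.23-fold lower, limma adjusted p 0.0128). In all 3 the groups stood apart. Dnajc3, a BiP cochaperone, stood at 52.7 and 38.9 RPM under CPX, against 76.1 and 82.4 RPM under DMSO, just past the threshold (1.74-fold lower, limma adjusted p 0.0489). It lost the call under TMM scaling, at 0.0879, and without DMSO replicate 1, at 0.246. Without DMSO replicate 2 the limma adjusted p was 0.0623 for Sdf2l1, 0.102 for Manf and 0.114 for Pdia6. The arm then had 3 genes lower, and it had 10 without CPX replicate 2.

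The 3 ER folding genes that rose under CPX have different roles. Dnajb9, a J protein that represses IRE1, stood at 95.2 and 120 RPM under CPX, against 53.8 and 24.9 RPM under DMSO (2.90-fold higher, limma adjusted p 0.0283). P4hb, the isomerase that is also a subunit of collagen prolyl hydroxylase, stood at 811 and 990 RPM under CPX, against 365 and 475 RPM under DMSO (2.15-fold higher, limma adjusted p 0.013). The sensor Atf6 stood at 326 and 359 RPM under CPX, against 197 and 181 RPM under DMSO (1.81-fold higher, limma adjusted p 0.0168). Each call was lost in a fit with 1 library left out, that of Dnajb9 without CPX replicate 1 and those of P4hb and Atf6 without DMSO replicate 1. Such a fit has 1 library in a group, and leaving out a DMSO library removed many calls over all genes as well. A lost call therefore does not show that it rested on that library. The remaining regulators did not pass. Xbp1 stood at 125 and 108 RPM under CPX, against 179 and 157 RPM under DMSO, and Ern1 at 37.6 and 93.8 RPM under CPX, against 46.0 and 44.4 RPM under DMSO. The lectin chaperones Calr and Canx, the large chaperone Hsp90b1 (GRP94) and the isomerase Pdia3 had log2 fold changes between -0.69 and -0.22 without a call. Of the degradation factors, Herpud1, Edem1, Syvn1 and Sel1l did not pass either. For Sel1l, the adaptor of the ubiquitin ligase HRD1 that Syvn1 encodes, the 2 CPX libraries stood on either side of DMSO, at 54.0 and 176 RPM, against 120 and 113 RPM under DMSO. Its limma log2 fold change was 0.60 without CPX replicate 1 and -1.10 without CPX replicate 2, and each passed the test.

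**Figure D2:**
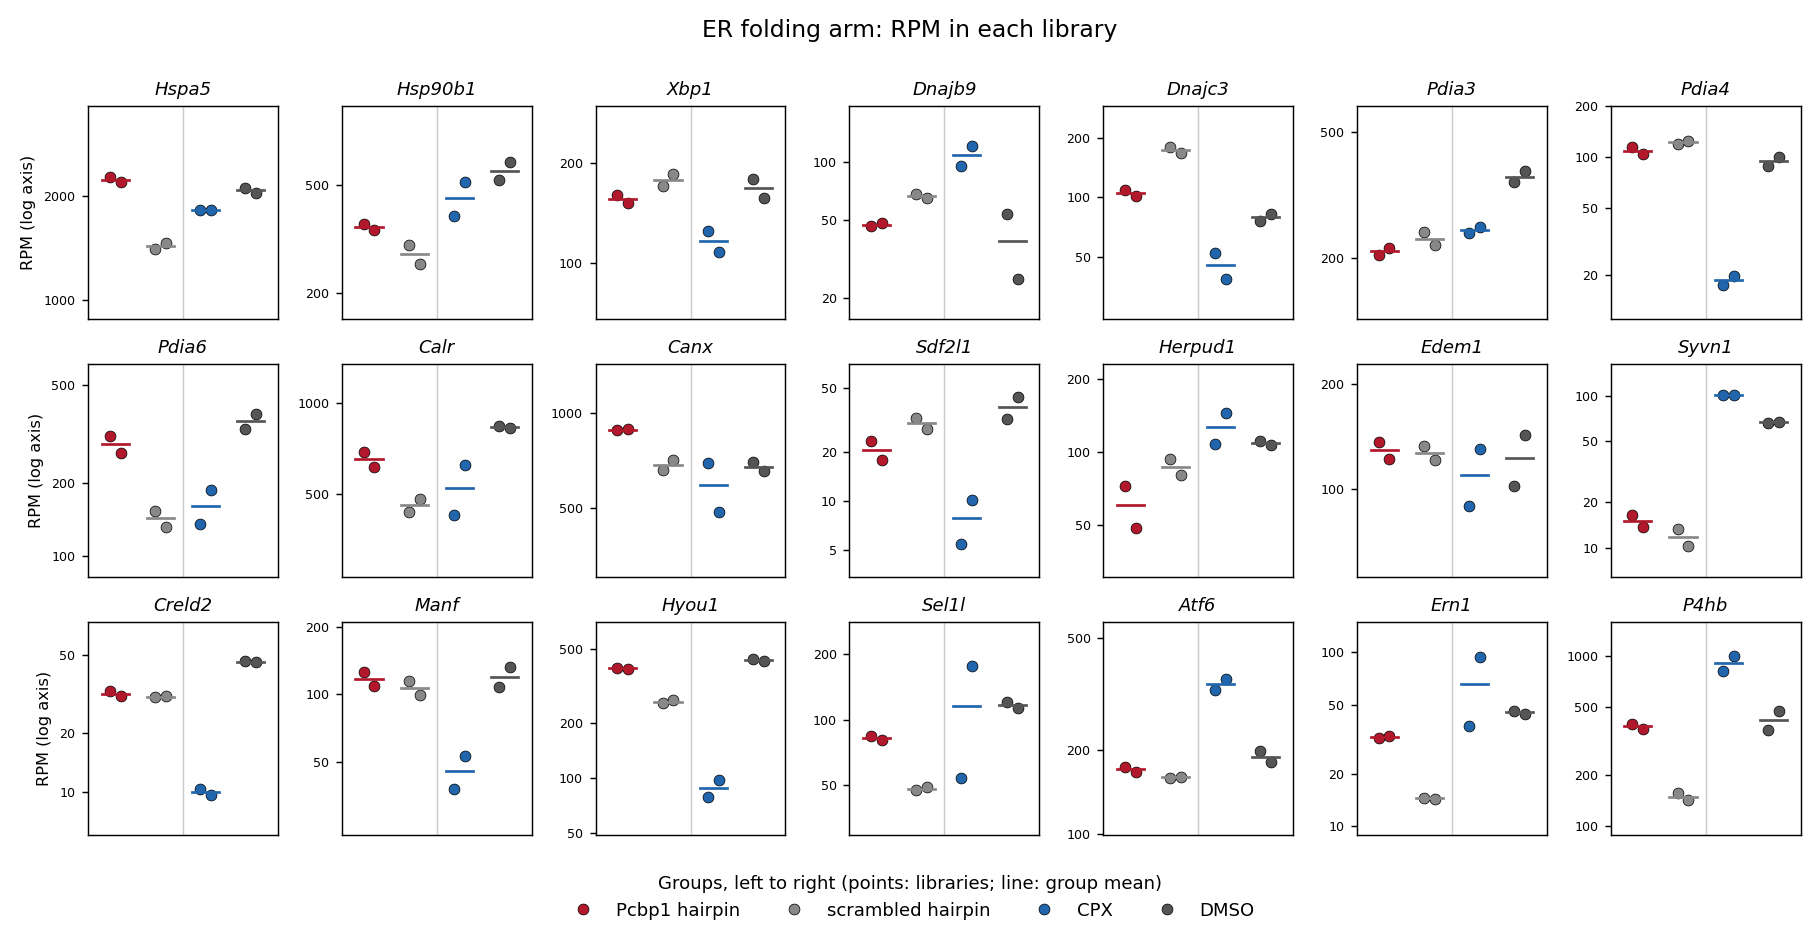
RPM of the ER folding genes in each library on a log axis, with groups in the order Pcbp1 hairpin, scrambled hairpin, CPX and DMSO; each point is 1 library and each line a group mean. Hyou1, Pdia4 and Creld2 show the CPX pair far below the DMSO pair, and P4hb shows the Pcbp1 hairpin pair above the scrambled pair at 395 and 372 RPM against 155 and 142 RPM.

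The ATF4 arm moved by less with the Pcbp1 hairpin, and more often downward than upward. Of 18 genes tested, 9 were lower than with the scrambled hairpin, 3 were higher and 6 did not pass, with edgeR's quasi-likelihood test and a Benjamini-Hochberg adjusted p under 0.05 over 11574 genes. In this comparison 56.0% of all genes were called, and 29.3% of those tested were higher and 26.7% lower. The arm's median log2 fold change was -0.41, beside 0.00 over all genes, and its range was -1.30 to 0.79. Lower genes included Atf4 itself, Psph, Asns and Cth. For 4 of the 18 genes Pcbp1 hairpin replicate 2 was over 1.5-fold below replicate 1, as was the case for 3.08% of all genes.

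Atf4 stood at 424 and 327 RPM with the Pcbp1 hairpin, against 546 and 477 RPM with the scrambled hairpin. Both Pcbp1 hairpin libraries were below both controls (log2 -0.55, SE 0.12, edgeR adjusted p 0.00626). Its partners and relatives did not pass. Ddit3 stood at 11.1 and 7.2 RPM with the Pcbp1 hairpin, against 10.2 and 9.15 RPM with the scrambled hairpin, and Cebpb at 2.19 and 1.47 RPM, against 2.26 and 2.02 RPM with the scrambled hairpin. Cebpg stood at 56.8 and 51.0 RPM with the Pcbp1 hairpin, against 57.3 and 52.0 RPM with the scrambled hairpin. The groups of these 3 genes overlapped. Atf5 stood at 3.87 and 2.52 RPM with the Pcbp1 hairpin, against 1.90 and 1.54 RPM with the scrambled hairpin, without overlap or a call (log2 0.79, SE 0.30, edgeR adjusted p 0.0569). It was called in limma (adjusted p 0.0413).

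Of the 9 lower genes of the arm, 5 encode enzymes of amino acid supply (Psph, Asns, Cth, Gpt2 and Psat1), while Aldh18a1, another such enzyme, was higher. Psph, which completes serine synthesis, stood at 25.4 and 24.9 RPM with the Pcbp1 hairpin, against 55.9 and 56.6 RPM with the scrambled hairpin. The replicates of each group were close together (2.41-fold lower, SE 0.09 on the log2 scale, edgeR adjusted p 3.05e-05). Asns stood at 160 and 132 RPM with the Pcbp1 hairpin, against 206 and 176 RPM with the scrambled hairpin (1.41-fold lower, edgeR adjusted p 0.00513). Cth stood at 32.2 and 22.9 RPM with the Pcbp1 hairpin, against 64.3 and 41.4 RPM with the scrambled hairpin (2.07-fold lower, edgeR adjusted p 0.00528). In both, the replicates of a group differed but the groups did not meet. Gpt2 stood at 13.7 and 8.81 RPM with the Pcbp1 hairpin, against 17.8 and 17.2 RPM with the scrambled hairpin (1.67-fold lower, edgeR adjusted p 0.0132). Psat1 was 1.26-fold lower (edgeR adjusted p 0.0168), a call that limma did not give (adjusted p 0.076). The stress genes Trib3, Chac1 and Stc2 fell too. Trib3 stood at 8.51 and 4.48 RPM with the Pcbp1 hairpin, against 15.9 and 11.2 RPM with the scrambled hairpin (2.23-fold lower, edgeR adjusted p 0.0113). Chac1 stood at 9.02 and 3.99 RPM with the Pcbp1 hairpin, against 17.0 and 12.8 RPM with the scrambled hairpin (2.45-fold lower, log2 -1.30, edgeR adjusted p 0.0107). Without Pcbp1 hairpin replicate 1 the log2 value of Chac1 was -2.0. Stc2 stood at 13.3 and 11.7 RPM with the Pcbp1 hairpin, against 18.8 and 15.9 RPM with the scrambled hairpin (1.49-fold lower, edgeR adjusted p 0.00828). For Trib3 and Chac1 the second Pcbp1 hairpin library was the lowest of the 4.

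The 3 higher genes were Aldh18a1, Ppp1r15a and Sesn2. Aldh18a1 stood at 136 and 125 RPM with the Pcbp1 hairpin, against 79.5 and 86.0 RPM with the scrambled hairpin (1.46-fold higher by edgeR, adjusted p 0.000511). Ppp1r15a stood at 74.1 and 74.5 RPM with the Pcbp1 hairpin, against 43.0 and 54.7 RPM with the scrambled hairpin (1.41-fold higher, edgeR adjusted p 0.00797). Sesn2 stood at 29.3 and 28.7 RPM with the Pcbp1 hairpin, against 19.8 and 21.5 RPM with the scrambled hairpin (1.30-fold higher, edgeR adjusted p 0.0152). The groups of all 3 stood apart, but Sesn2 did not pass with DESeq2 (adjusted p 0.0768) or, in edgeR, without Pcbp1 hairpin replicate 1 (0.0532), Pcbp1 hairpin replicate 2 (0.0567) or scrambled hairpin replicate 1 (0.0865). Phgdh had a log2 fold change of 0.28 and Pycr1 of -0.65 without a call in edgeR, while limma called Phgdh (adjusted p 0.0316). Vldlr, Nupr1 and Gdf15 were under 1 RPM in too many of these libraries to be tested, and Gdf15 had at most 1 read in each. In limma all of Asns, Sesn2 and Cth passed, and with the trend of fold change on gene length and GC content taken out they did not, at limma adjusted p of 0.131, 0.138 and 0.0746.

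The ER folding arm changed in both directions with the Pcbp1 hairpin. Of 21 genes, 8 were higher, 7 lower and 6 did not pass in edgeR's quasi-likelihood test, where 56.0% of all genes were called. The median log2 fold change was 0.02 over the arm and 0.00 over all genes, and 2 genes, P4hb and Ern1, stood at least 2-fold higher, beside 9.53% of all genes. The higher genes included chaperones that bind folding chains (Hspa5, Calr and Canx) and isomerases (P4hb and Pdia6). The lower genes included the J proteins Dnajb9 and Dnajc3.

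Hspa5 stood at 2267 and 2184 RPM with the Pcbp1 hairpin, against 1404 and 1462 RPM with the scrambled hairpin (log2 0.53, SE 0.08, edgeR adjusted p 0.00106). P4hb stood at 395 and 372 RPM with the Pcbp1 hairpin, against 155 and 142 RPM with the scrambled hairpin (2.39-fold higher, edgeR adjusted p 1.56e-05). Pdia6 stood at 309 and 265 RPM with the Pcbp1 hairpin, against 154 and 132 RPM with the scrambled hairpin (1.86-fold higher, edgeR adjusted p 0.000192). The groups of these genes did not meet, and the replicates of each were close. Hyou1 stood at 396 and 393 RPM with the Pcbp1 hairpin, against 256 and 264 RPM with the scrambled hairpin (1.41-fold higher, edgeR adjusted p 0.000399). Calr stood at 690 and 614 RPM with the Pcbp1 hairpin, against 437 and 482 RPM with the scrambled hairpin (1.32-fold higher, edgeR adjusted p 0.00548). Calr and its membrane-bound relative Canx hold glycoproteins during folding, and Canx was 1.2-fold higher (edgeR adjusted p 0.0189). The sensor Ern1 stood at 32.3 and 33.1 RPM with the Pcbp1 hairpin, against 14.6 and 14.3 RPM with the scrambled hairpin (2.10-fold higher, edgeR adjusted p 0.000107). Sel1l stood at 83.8 and 80.8 RPM with the Pcbp1 hairpin, against 47.6 and 49.0 RPM with the scrambled hairpin (1.58-fold higher, edgeR adjusted p 0.000185). Of the 8 higher genes, 7 were called with each library left out in turn, and Canx was not, at an edgeR adjusted p of 0.07 without Pcbp1 hairpin replicate 2 and 0.143 without scrambled hairpin replicate 1. RPM ratios run above these fitted folds here, since limma on plain RPM gave a median of all genes of 0.10 on the log2 scale where edgeR gave 0.00.

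Dnajc3 stood at 109 and 102 RPM with the Pcbp1 hairpin, against 180 and 167 RPM with the scrambled hairpin (1.77-fold lower, edgeR adjusted p 5.55e-05). Dnajb9 stood at 46.5 and 48.3 RPM with the Pcbp1 hairpin, against 68.4 and 64.7 RPM with the scrambled hairpin (1.51-fold lower, edgeR adjusted p 0.000446). Both J proteins were clear of their controls, though the log2 fold change of Dnajb9 was -0.49 in limma (adjusted p 0.00103) and -0.02 with length and GC content taken out (limma adjusted p 0.83). Xbp1, the factor that IRE1 activates, stood at 160 and 152 RPM with the Pcbp1 hairpin, against 171 and 186 RPM with the scrambled hairpin (log2 -0.30, SE 0.07, edgeR adjusted p 0.00652). Sdf2l1 stood at 23.6 and 18.0 RPM with the Pcbp1 hairpin, against 32.5 and 28.0 RPM with the scrambled hairpin (1.56-fold lower, edgeR adjusted p 0.00675). Herpud1, a partner of the HRD1 ligase, stood at 72.6 and 48.5 RPM with the Pcbp1 hairpin, against 93.8 and 80.1 RPM with the scrambled hairpin (1.55-fold lower, edgeR adjusted p 0.0146). The groups of these 3 genes stood apart. Pdia4 stood at 114 and 104 RPM with the Pcbp1 hairpin, against 119 and 125 RPM with the scrambled hairpin (1.21-fold lower, edgeR adjusted p 0.0121), and Pdia3 at 205 and 215 RPM, against 241 and 219 RPM with the scrambled hairpin (1.18-fold lower, edgeR adjusted p 0.0228). These small changes did not pass in limma, at adjusted p of 0.0899 for Pdia4 and 0.15 for Pdia3. The sensor Atf6 stood at 173 and 167 RPM with the Pcbp1 hairpin, against 159 and 160 RPM with the scrambled hairpin, and was not called (edgeR adjusted p 0.808). Edem1, Syvn1, Creld2 and Manf were not called either, with log2 fold changes between -0.08 and 0.25. Hsp90b1 lay just outside the threshold (log2 0.22, edgeR adjusted p 0.0519) and was called higher in limma (0.0101) and in edgeR without scrambled hairpin replicate 1 (0.0142).

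The 2 experiments share no libraries, so their changes could be compared directly, as the Pcbp1 hairpin effect minus the CPX effect in a limma fit over all 8 libraries. A negative difference means that the gene moved further down, or less far up, with the hairpin than with CPX. Of 10430 genes tested, 51.3% differed, and 35.2% of those tested had a positive and 16.1% a negative difference. In the ATF4 arm 9 of 18 genes had a negative and 2 a positive difference, with a median of -1.11 against 0.40 over all genes. In the ER folding arm 8 of 21 had a positive and 2 a negative difference, with a median of 0.68. When the library totals were scaled with TMM, the median of all genes was 0.04, that of the ATF4 arm -1.49 and that of the ER folding arm 0.30, and the ATF4 arm had 11 negative and 0 positive differences. RNA preparation differed between the experiments (ribosomal depletion and polyA), and its part in these differences cannot be told apart from that of the treatments.

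The largest negative differences in the ATF4 arm were those of Trib3 (-5.57, SE 0.76, limma adjusted p 0.00103), Ddit3 (-4.27, SE 0.38, limma adjusted p 0.000181) and Cebpb (-3.76, SE 0.37, limma adjusted p 0.000279), on the log2 scale. Atf4 itself did not pass (-0.67, limma adjusted p 0.173), except with TMM scaling (0.0429). Psph had a difference of -1.03 (limma adjusted p 0.00562), and its fold changes were -1.27 with the Pcbp1 hairpin in edgeR and -0.11 with CPX in limma on the log2 scale. Hairpin folds from edgeR are scaled otherwise than the limma difference, so the 2 folds do not subtract to it. In limma the hairpin fold change of Psph was -1.15. The positive differences of Aldh18a1 (0.64) and Pycr1 (1.48) were lost with TMM scaling, at limma adjusted p of 0.336 and 0.058. In the ER folding arm the largest positive differences were those of Hyou1 (2.91, SE 0.18, limma adjusted p 7.05e-05), Creld2 (2.22), Pdia6 (2.16) and Pdia4 (2.15). Hspa5 had a difference of 0.82 (limma adjusted p 0.00427) that did not pass with TMM scaling (0.117). Dnajb9 (-2.02) and Atf6 (-0.77) went the other way and passed in every alternative tried.

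Of the 12 members called in both comparisons, 6 moved in opposite directions, and among all 2609 genes called in both 1374 did. Hyou1 and Pdia6 were higher with the Pcbp1 hairpin and lower with CPX, while Trib3, Stc2, Gpt2 and Dnajb9 were lower with the Pcbp1 hairpin and higher with CPX. Sesn2, Ppp1r15a and P4hb were higher in both, and Dnajc3, Pdia4 and Sdf2l1 lower in both. P4hb had log2 fold changes of 1.26 with the Pcbp1 hairpin in edgeR (1.36 in limma) and 1.11 with CPX in limma, and the limma difference of 0.26 did not pass (limma adjusted p 0.387). Dnajc3 had -0.82 with the Pcbp1 hairpin in edgeR (-0.71 in limma) and -0.80 with CPX in limma (limma adjusted p of the difference 0.778). The 6 genes whose promoters are printed above for the ER stress response element did not move as 1 group. With the Pcbp1 hairpin Hspa5, Pdia6, Calr and Canx were higher, Dnajc3 was lower and Creld2 was not called, and with CPX Pdia6, Dnajc3 and Creld2 were lower while Hspa5, Calr and Canx were not called. Of the 6 genes with the C/EBP-ATF response element, Trib3, Chac1 and Asns were lower with the Pcbp1 hairpin, Pycr1 was not called, and Vldlr and Nupr1 were not tested. Under CPX Trib3 was higher, and Chac1 and Asns were not called. Vldlr and Nupr1 were called higher and Pycr1 lower under CPX. Those 3 calls carry no weight, since each gene entered the test only through the group where it was high.

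**Figure D3:**
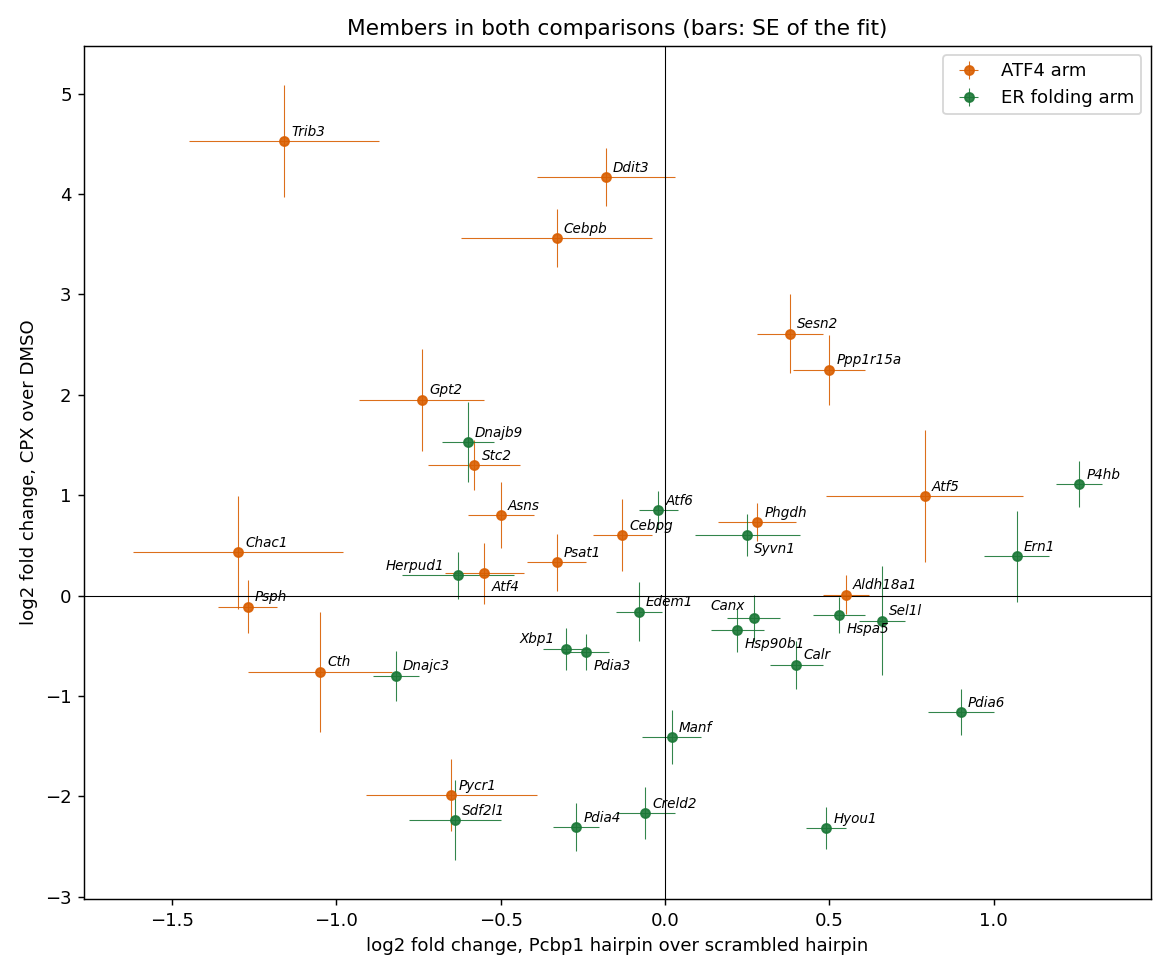
Log2 fold change with the Pcbp1 hairpin over the scrambled hairpin (horizontal axis) and with CPX over DMSO (vertical axis) for the 39 members tested in both; each point is 1 gene, coloured by arm, with the SE of the fit as bars. Trib3 at -1.16 and 4.53 and Ddit3 at -0.18 and 4.17 stand at the top, and Hyou1 at 0.49 and -2.32 at the bottom right.

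**Figure D4:**
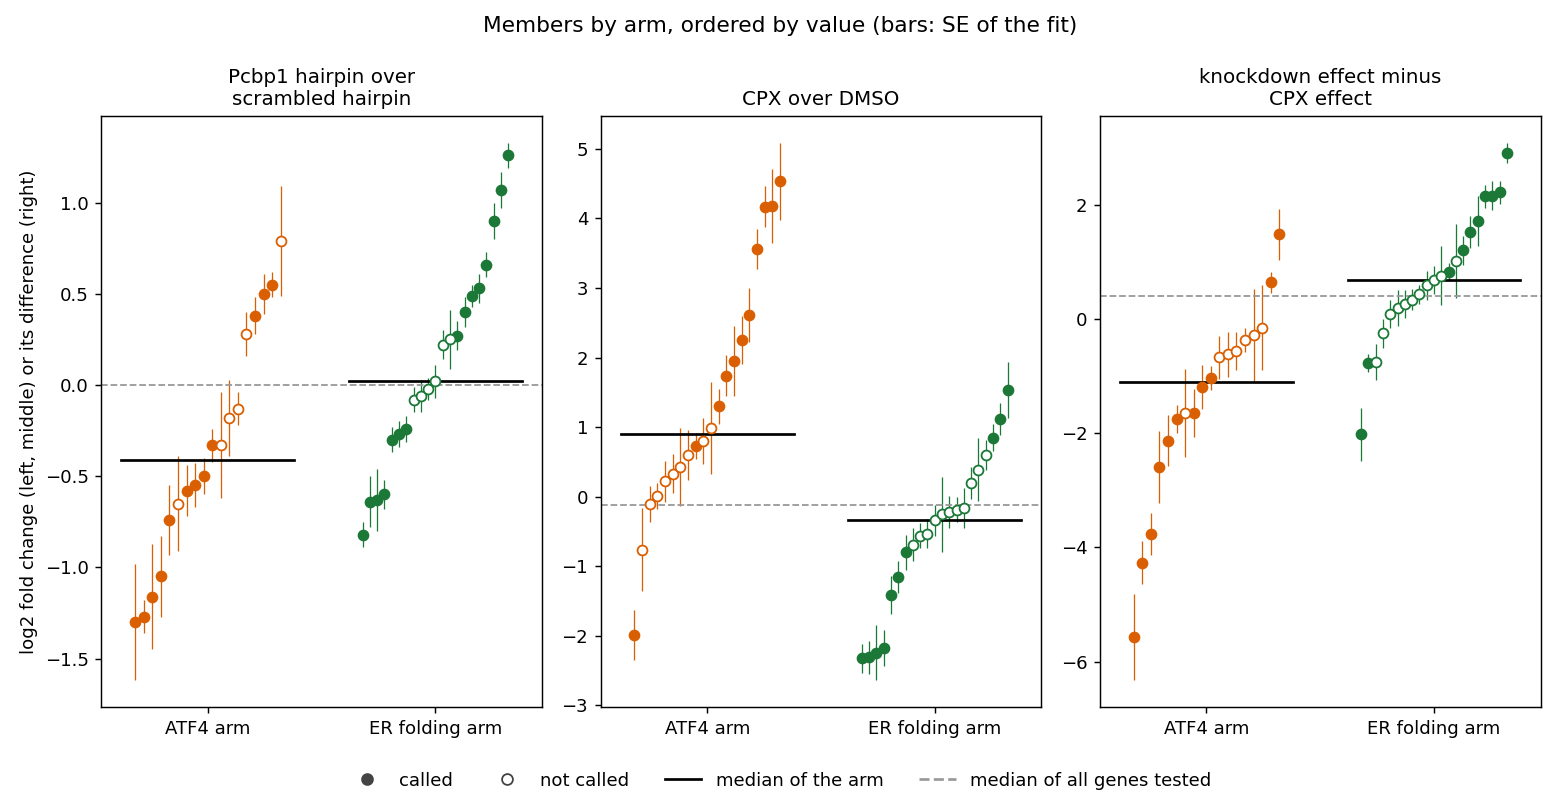
Log2 fold changes of the members of each arm with the Pcbp1 hairpin (left), with CPX (middle) and their difference (right), 1 point per gene with its SE, filled where called, with the median of the arm (solid line) and of all genes tested (dashed line). The ATF4 arm has a median of -0.41 with the Pcbp1 hairpin, 0.90 under CPX and -1.11 for the difference, and the ER folding arm has medians of 0.02, -0.34 and 0.68. Without the 3 genes that entered the CPX test only through 1 group, the ATF4 arm median under CPX is 0.80.

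Pathway genes outside the arms were counted from fixed lists with the same tests, and the called gene with the smallest adjusted p in each direction is named. Over all genes 19.9% were higher and 24.8% lower under CPX, and 29.3% were higher and 26.7% lower with the Pcbp1 hairpin, so a list near those shares does not stand out. Upstream of ATF4, the 17 genes that set or undo eIF2 phosphorylation and guanine exchange had 3 higher and 7 lower under CPX (median log2 -0.60), with Impact, an inhibitor of the kinase GCN2, at 2.77 and Eif2b3, a subunit of the exchange factor, at -3.35. In Pcbp1 hairpin cells 9 were higher and 3 lower (median 0.39), with Eif2s2, the beta subunit of eIF2, at 1.84 and Eif2s1, the alpha subunit, at -0.52. Of 11 amino acid transporters, 4 were higher and 1 lower under CPX (median 0.44), and 8 were higher and 0 lower with the Pcbp1 hairpin (median 0.39). The glutamine carrier Slc38a2 had a log2 fold change of 2.22 and Slc36a4 of -1.45 under CPX, and Slc38a1, another glutamine carrier, had 1.73 with the Pcbp1 hairpin. Of 21 genes of tRNA charging, 4 were higher and 8 lower under CPX (median -0.03), with the alanine enzyme Aars at 1.66 and the phenylalanine enzyme Farsa at -1.98. In Pcbp1 hairpin cells 14 were higher and 1 lower (median 0.38), with the lysine enzyme Kars at 1.97 and the aspartate enzyme Dars at -0.97. Of 11 genes of folate, proline and related metabolism, 1 was higher and 5 lower under CPX, and 2 were higher and 2 lower with the Pcbp1 hairpin. Mthfd1, a folate enzyme of the cytosol, stood at 16.2 and 14.3 RPM under CPX, against 210 and 216 RPM under DMSO (log2 -3.77, limma adjusted p 0.00241). Mthfd1 had 217 and 222 RPM with the Pcbp1 hairpin, against 53.9 and 58.6 RPM with the scrambled hairpin (log2 1.86, edgeR adjusted p 7.95e-06). The named gene that was higher under CPX was Got1 (log2 0.97), and the one that was lower with the Pcbp1 hairpin was Pycrl (log2 -0.47). Other genes linked to ATF4, NRF2 or mitochondrial stress moved up under CPX, with 16 of 24 higher and 2 lower (median 1.67). The higher genes include Klf4, at 28.1 and 31.1 RPM under CPX, against 1.07 and 0.665 RPM under DMSO, which entered the test only through CPX. Such genes were not taken out of the counts of these lists. The autophagy receptor Sqstm1 stood at 1934 and 1594 RPM under CPX, against 210 and 221 RPM under DMSO (log2 3.02, limma adjusted p 0.00241), and the death receptor Tnfrsf10b had -1.67. In Pcbp1 hairpin cells 8 of 23 were higher and 4 lower (median 0.14), with Nfe2l1 at 1.03 and the mitochondrial chaperonin Hspe1 at -0.59.

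The ER lists are to be read against the same shares of all genes. The sensors and their processing factors had 3 of 14 higher and 6 lower under CPX (median -0.50) and 7 of 13 higher and 1 lower with the Pcbp1 hairpin (median 0.45). Yod1, a deubiquitinase, had a log2 fold change of -3.53 under CPX, at 0.573 and 0.416 RPM, against 12.8 and 9.31 RPM under DMSO. The ER-bound factor Creb3l3 was at 3.70 and 2.65 RPM under CPX and listed at 0 in both DMSO libraries. Both genes entered the test only through the group where each was high, so their calls carry no weight. Creb3l2, a relative of Creb3l3, had 1.71 with the Pcbp1 hairpin, and Bfar had -0.48. Of other chaperones, oxidases and glycan enzymes, 1 of 31 was higher and 8 lower under CPX (median -0.51), with Tmx4 at 1.46 and Pdia5 at -2.11. Pdia5 entered the test only through DMSO, at 0.521 and 0.312 RPM under CPX, against 3.51 and 3.38 RPM under DMSO, so its call carries no weight. In Pcbp1 hairpin cells 9 of 33 were higher and 12 lower (median -0.16), with Prkcsh, the beta subunit of glucosidase II, at 1.26 and Serp1 at -0.88. Of 22 other degradation genes, 4 were higher and 3 lower under CPX (median 0.02) and 5 were higher and 8 lower with the Pcbp1 hairpin (median -0.10). Ubxn4 had 1.96 and Edem2 -1.67 under CPX, and the lectin Os9 had 1.34 and the ligase Rnf139 -0.76 with the Pcbp1 hairpin. Of 24 genes of the translocon and signal peptidase, 0 were higher and 6 lower under CPX (median -0.33), with Ssr2 at -1.31. The Pcbp1 hairpin libraries had 7 genes higher and 11 lower (median -0.11), with Sec62 at 1.62 and Ssr4 at -0.91. Of 23 genes of transport between ER and Golgi, 0 were higher and 7 lower under CPX (median -0.49). The cargo receptor Lman1 stood at 8.75 and 16.0 RPM under CPX, against 84.4 and 103 RPM under DMSO (log2 -2.92, limma adjusted p 0.00357). The Pcbp1 hairpin libraries had 9 genes higher and 9 lower (median 0.11), with the coat subunits Copb2 at 2.20 and Sec13 at -0.69.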

How the data were processed

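Reads were handled with cutadapt, STAR, HTSeq and DESeq on mm9, per the submitters' processing notes; the sources used here do not give versions or the annotation. The deposited per-library table carries an RPM name, and the design assumed that unit. The authors' values for the hairpin libraries are instead raw counts per gene, and those for CPX and DMSO are a rounded score, each count having been divided by 1 shared value (about 1.98 reads make 1 unit), and no whole reads were recovered from them. The authors' deposited result tables give a mean signal of normalized counts, log2 fold changes with standard errors, a Wald score and p-values.

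Gene labels of that table are displaced by 1 line from the constant line Ins1 on. They were set right by matching each line to the mean normalized counts in the authors' 2 result tables. Of 14805 lines with at least 10 in 1 library, 14453 matched 1 gene and 352 matched several, which were left out. Of the members 41 matched, 19 of them displaced, and Gdf15 was taken by its own label. RPM was computed here from the library total without the constant line.

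Genes at 1 RPM or more in at least 2 libraries of a comparison were tested. Hairpin counts were tested with edgeR 4.0.16 (quasi-likelihood, TMM) and CPX values with limma 3.58.1 (trended variance, pseudocount 0.5 RPM), in R 4.3.3, each fit holding the 4 libraries of its experiment. All 8 entered the fit of the difference. P-values were adjusted by Benjamini-Hochberg over all genes tested, and 0.05 was the threshold. A standard error is the log2 fold change divided by the root of edgeR's F or by limma's t, so the 2 kinds are not the same quantity. A fold change in CPX is on the log2(RPM + 0.5) scale and understates the change of low genes. The scripts were tested on simulated data. Alternatives were DESeq2 1.42.0, other scalings, filters and pseudocounts, a replicate block, a length and GC correction, and leaving out each library.

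All 42 members are accounted for. Library values are given for the regulators Atf4, Ddit3, Atf5, Cebpb, Cebpg, Xbp1, Atf6 and Ern1, for Hspa5, and for up to 7 called members with the smallest adjusted p per arm, comparison and direction; library values of other members were chosen after they were seen, and from each pathway list the called gene with the smallest adjusted p per direction is named. Members and pathway lists were chosen with earlier results of these data known. Whether strand was used in counting is not given in these sources, so overlapping and antisense genes are uncertain.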

Additional observations from a re-analysis of the deposited data

How the results depend on the processing

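With 2 libraries a group, many calls are lost or gained when 1 library is left out, which leaves 1 library in its group. For the Pcbp1 hairpin, the ATF4 arm had 3 genes higher and 9 lower, and 5 were higher with limma on log2(RPM + 0.5) and 5 with the replicate number as a block. With a library left out the counts lay between 2 and 4 higher and 7 and 10 lower, and in the ER folding arm between 7 and 8 higher and 6 and 7 lower. For CPX, leaving out a library gave 6 to 12 higher and 0 to 1 lower in the ATF4 arm and 1 to 5 higher and 3 to 10 lower in the ER folding arm. For the difference, the ATF4 arm had 0 positive differences with TMM scaling and 1 with a filter of 5 RPM. With a library left out, it had 0 to 2 positive and 7 to 12 negative differences, and the ER folding arm 7 to 12 positive and 2 to 3 negative. Where 1 library of a group is left, it is assumed to vary like the other groups. Sel1l under CPX changed sign, at 0.60 without CPX replicate 1 and -1.10 without CPX replicate 2; the 2 CPX libraries lie on either side of DMSO. For the Pcbp1 hairpin, limma with length and GC content taken out lost 4 member calls (Asns, Sesn2, Cth and Dnajb9) and gained 2 (Pycr1 and Atf6) relative to limma without that step. The labels do not say that a replicate number marks a shared origin, and 2 pairs cannot settle it. Deviations of same-numbered libraries correlated at 0.29 in the hairpin experiment, where the CD8 genes also followed the number, and at 0.10 in the CPX experiment. Cd28, Ifng and Prdm1 were higher in replicate 2 than in replicate 1 under both CPX and DMSO. Cd28 stood at 180 and 450 RPM under CPX and at 140 and 398 RPM under DMSO. In contrast, Cd3e, Cd3d, Cd3g and Cd4 were lower in replicate 2 under CPX and higher in replicate 2 under DMSO. Under the replicate block Phgdh (edgeR adjusted p 0.026), Pycr1 (0.0184), Atf5 (0.0194) and Hsp90b1 (0.0102) gained a call for the Pcbp1 hairpin. DESeq2 called 5110 genes and edgeR 6482. Without DMSO replicate 1 or 2, 2108 or 2354 genes were called for CPX, against 5124 in all. The cause of these shifts was not tested. Depth limits Vldlr, Nupr1 and Gdf15. Vldlr, Nupr1 and Pycr1, which entered the CPX test only through the group where each was high, were not taken out of the CPX counts above.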

Other observations

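The replicates of a group were not equally close in the 2 arms. Under CPX, replicate 2 was over 1.5-fold lower than replicate 1 for 4 and over 1.5-fold higher for 6 of 20 ATF4 arm genes, and for 0 and 3 of 21 ER folding genes, beside 14% and 23.3% of all genes tested. Under DMSO, 5 of 20 ATF4 arm genes were over 1.5-fold lower in replicate 2 and 1 was higher, and 1 of 21 ER folding genes was lower and 0 higher, beside 2.81% and 10.8% of all genes. With the Pcbp1 hairpin 4 of 18 ATF4 arm genes were lower in replicate 2 and 0 higher, beside 3.08% and 1.28% of all genes, and 0 of 21 ER folding genes differed by that much in either direction. With the scrambled hairpin 1 of 18 ATF4 arm genes was lower in replicate 2 and 0 of 21 ER folding genes differed, beside 2.83% lower and 1.75% higher of all genes.

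The authors' deposited tables, made with DESeq per the submitters' processing notes, give nearly the same member calls at an adjusted p of 0.05. With the Pcbp1 hairpin they hold 2 ATF4 arm genes higher and 9 lower and 8 ER folding genes higher and 7 lower, without Sesn2 (0.0772 in the authors' deposited table). For CPX they hold 10 ATF4 arm genes higher and 1 lower and 3 ER folding genes higher and 6 lower. These include Vldlr, Nupr1 and Pycr1, whose calls carry no weight here. Atf5 passes there (0.0478 in the authors' deposited table), while Phgdh and Dnajc3 do not (0.061 and 0.0756 in the authors' deposited table).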
